A study of Homo sapiens with 6 samples.

Results

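The genes described here are 10 regulators and markers of the epithelial-mesenchymal transition (EMT), chosen by gene symbol from the 58735 genes of a deposited RNA-seq count table. They are the cadherins CDH1 and CDH2, the mesenchymal markers VIM and FN1, and the transcription factors SNAI1, SNAI2, TWIST1, TWIST2, ZEB1 and ZEB2. All 10 were found once each in the table, and all 10 were counted deeply enough to be among the 16116 genes tested. The samples were human cells labelled MG63, an established osteosarcoma line. They carried either small interfering RNA (siRNA) against FUBP1, a single-stranded nucleic acid binding protein (siFUBP1, n = 3), or a control siRNA (siMock, n = 3), and RNA was collected 48 h after transfection. The study examined FUBP1 in the response of osteosarcoma cells to lobaplatin, a platinum drug, and the comparison asks which transcripts differ once FUBP1 is reduced. No drug is named in the labels of these samples. The study says in general that its experiments were repeated independently, but neither it nor the labels say whether these samples came from separate cultures, so p-values measure the spread between these samples only, which may be technical.

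In the EMT, epithelial cells give up their junctions and polarity and take on a migratory, mesenchymal state. E-cadherin, the product of CDH1, holds epithelial cells together through catenins, and its replacement by N-cadherin, the product of CDH2, is a classical sign of the transition. The SNAIL, TWIST and ZEB proteins bind E-box elements and repress CDH1 and other junction genes, and the ZEB transcripts are themselves held down by microRNAs of the miR-200 family. Tumours of bone arise from mesenchymal cells, so a mesenchymal set of markers is the usual starting state of such lines.

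Total counts lay between 16309900 and 17484313 reads per sample. Mitochondrial transcripts took 5.599% to 6.59% of the reads in siMock and 3.98% to 4.88% in siFUBP1, and their part in the results below was not tested. Normalized counts are given as CPM, counts scaled to a fixed number of reads, of the library size scaled by TMM, a method that sets the libraries to a common level on the bulk of the genes. FUBP1 itself had 3872, 4331 and 4282 counts in siMock samples 1 to 3 and 749, 752 and 926 in siFUBP1 samples 1 to 3. Its level fell from 255 ± 18.5 to 46.9 ± 5.33 CPM (SD, n = 3), and 18.4% of the siMock level remained. In bulk RNA, fewer cells that express a gene cannot be told apart from less RNA per cell.

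Most osteoblast lineage markers, which the label would call for, were absent or near 0. COL1A2, the second chain of type I collagen, and IBSP, a bone matrix sialoprotein, had 0 counts in all 6 samples, which allows up to 0.192 CPM in the shallowest sample (3 counts, counting error only). ALPL had at most 1 count per sample and SPARC at most 5. The osteoblast cadherin CDH11 had 1 count in 1 sample and none in the others. RUNX2, the master transcription factor of osteoblasts, was counted 6 to 8 times in siMock and 39 to 97 times in siFUBP1. BGLAP had 2 to 4 and 8 to 13 counts, and it shares 33.5% of its exonic bases with other genes. Of the 7 osteoblast lineage markers, COL1A1 alone was abundant, with 1692 to 2000 counts in siMock against 769 to 792 in siFUBP1. The keratins of simple epithelia, in contrast, were among the abundant transcripts. KRT8 had 28650 to 34970 counts in siMock against 16128 to 18157 in siFUBP1, KRT18 had 10755 to 12282 and 7498 to 7888, and KRT7 had 13632 to 17353 and 11575 to 13425. Of the 5 epithelial markers, CLDN4 (183 to 536 counts over the 6 samples), CLDN7 (226 to 376) and EPCAM (59 to 83) were detected, while KRT19 (at most 3) and CLDN3 (at most 8) were nearly absent. Leukocyte markers PTPRC, CD68 and CD3E had at most 2 counts in any sample. The endothelial markers were low as well, with at most 1 count of KDR, 11 of PECAM1 and 14 of VWF. CDH11, KRT7, KRT8 and KRT18 are named here after their values were seen. The line is therefore called by its label below, and no other cell type name is given to it.

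**Figure D1:**
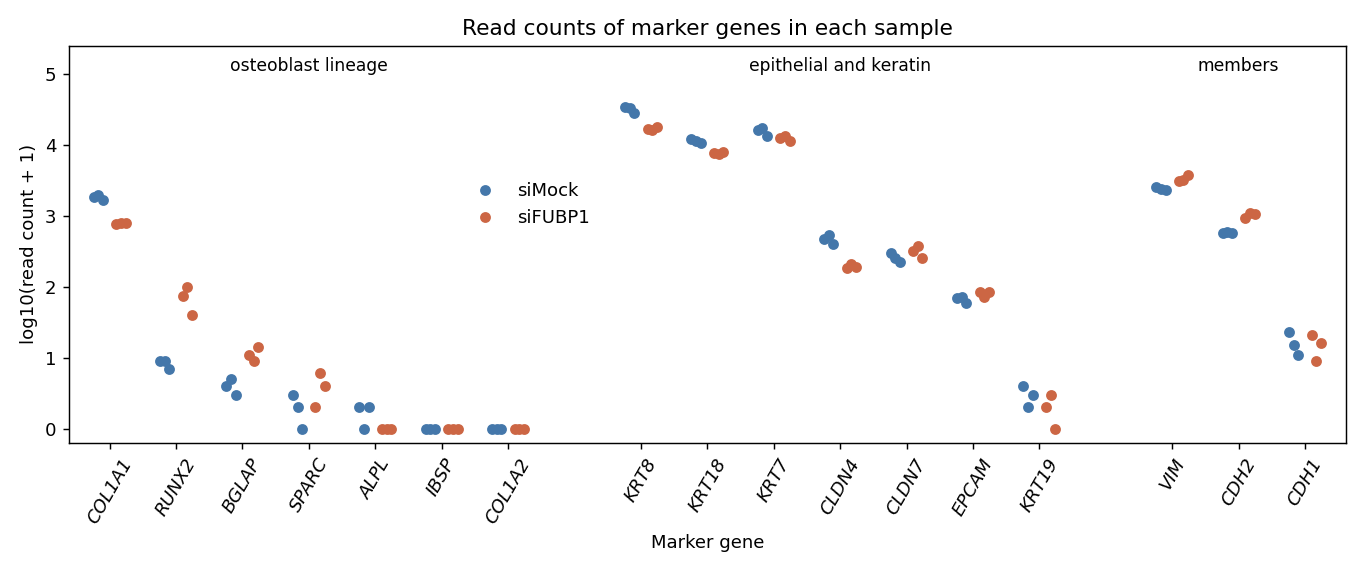
Read counts of marker genes in each of the 6 samples, as log10(count + 1), for the osteoblast lineage (left), epithelial genes and keratins (middle) and 3 of the EMT genes (right). COL1A2 and IBSP lie at 0 in every sample, while KRT8 reaches 34970 counts and CDH1 stays at 22 or fewer.

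The siRNA guides and the microRNA sites of the ZEB transcripts are shown first, since they are the sequences that bear on these genes. The study lists 3 FUBP1 siRNAs and the sources do not say which was sequenced. Their guide strands, with the seed (bases 2 to 8) in capitals, are these.
RNAi#1: uAAACUGAaugcgaacacc
RNAi#2: uAAGAGGUuugucagcacc
RNAi#3: uUUCUUCUaugaguugccg
A transcript whose 3-prime untranslated region (UTR) matches a seed can be lowered by a guide that was not designed against it. In the principal GENCODE transcript, the ZEB2 UTR of 5370 bases held 1 match of 7 bases to the seed of RNAi#1 and 3 to that of RNAi#3. ZEB1 held 1 match and CDH1 2 matches to RNAi#3. No match to RNAi#2 was found in any of the 10 genes. The UTRs of SNAI1, TWIST2 and FN1, the genes that were lower in siFUBP1, held none for any guide. Neither did those of CDH2, VIM and SNAI2, which were higher, or of TWIST1, which did not pass the test. Only matches of 7 bases in 1 UTR per gene were counted, and an effect of the guides on these genes was not tested. A single match for RNAi#3 is common, since 25.05% of the 2224 UTRs within 20% of the length of that of ZEB1 and 60.1% of the 907 within 20% of that of ZEB2 hold it, and 8.60% of the latter hold 3 or more. The 2 matches of CDH1 are less common, with 4.945% of the 2184 UTRs of like length holding as many.

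The miR-200 microRNAs fall into 2 groups by seed, and miR-205, which is expressed in epithelia together with them, has another. Their mature sequences from RefSeq (GRCh38.p14) are given with the seed in capitals.
hsa-miR-200b-3p: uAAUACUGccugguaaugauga
hsa-miR-200c-3p: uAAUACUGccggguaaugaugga
hsa-miR-429: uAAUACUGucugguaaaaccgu
hsa-miR-200a-3p: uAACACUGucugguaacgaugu
hsa-miR-141-3p: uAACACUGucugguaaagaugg
hsa-miR-205-5p: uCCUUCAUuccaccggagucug
The ZEB1 UTR of 1938 bases held 5 matches (CAGTATT) to the first group and 3 (CAGTGTT) to the second, and 1 (ATGAAGG) to miR-205. The ZEB2 UTR held 5 and 4, and none for miR-205. FN1 held 2 matches to the first group, SNAI2 held 1, and the other 6 genes none for either. Few UTRs hold as many. Among UTRs of like length, the count of 5 CAGTATT matches was reached by 1 of 2224 for ZEB1 and by 1 of 907 for ZEB2, in each case the gene itself, while 14.8% of all 18838 UTRs hold at least 1. The following 25-base stretches, with the match in capitals, show the first and the last match of the first group in each UTR.
ZEB1 site at UTR bases 369 to 375: attgttttatcttatCAGTATTatc
ZEB1 site at UTR bases 1313 to 1319: tgtcttcaaacctggCAGTATTaat
ZEB2 site at UTR bases 392 to 398: cgcactaccatacatCAGTATTttt
ZEB2 site at UTR bases 1029 to 1035: tcatactgtagtgtaCAGTATTata
The microRNAs themselves were not measured. MIR200CHG, the host transcript of miR-200c and miR-141, had 1 count in 1 of the 6 samples, and MIR205HG had 0 in all 6.

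Of the 10 genes, 5 were higher in siFUBP1 (CDH2, VIM, SNAI2, ZEB1 and ZEB2), 3 were lower (FN1, SNAI1 and TWIST2) and 2 did not pass the test (CDH1 and TWIST1). Genes were called by the quasi-likelihood test of edgeR at an adjusted p below 0.05, with Benjamini-Hochberg correction over the 16116 genes. It called 60.2% of all genes tested, 30.1% being higher in siFUBP1 and 30.1% lower. Against that share, 8 of 10 is a count in a comparison where most genes were called. With an absolute log2 fold change above 1 as well, 1 gene was called higher (ZEB2; background 8.16%) and none lower (background 9.13%). Groups stood apart without overlap for 8 of the 10 genes, against 63.9% of all genes tested. Their median log2 fold change was 0.42, beside 0.0020 over all genes, and their median absolute log2 fold change was 0.75, beside 0.44.

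**Figure D2:**
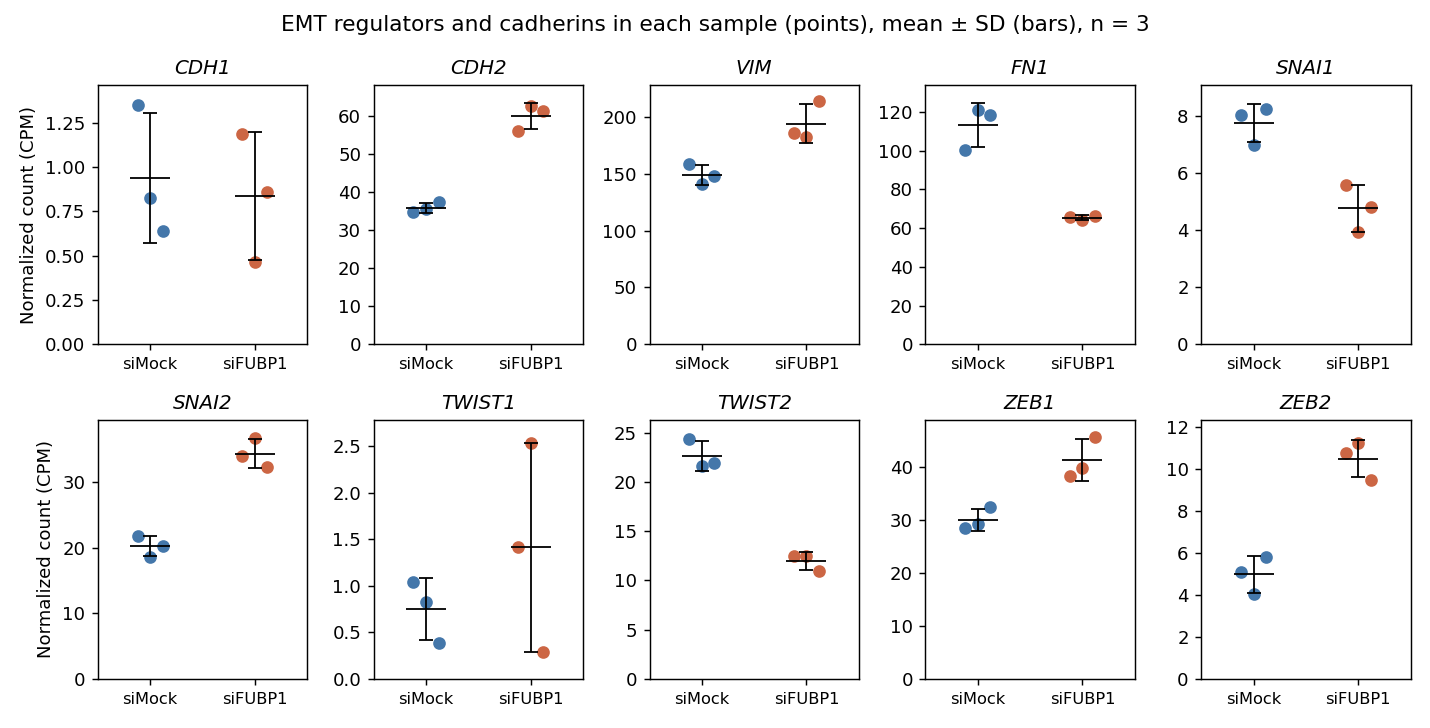
Normalized count (CPM, linear axis from 0) of each gene in each sample, with the mean and SD of 3 samples. The groups are apart in 8 panels and overlap for CDH1 and TWIST1.

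CDH1 (ENSG00000039068, chromosome 16, 68737225 to 68835548 on GRCh38, plus strand) was nearly absent in both groups. It had 22, 14 and 10 counts in siMock and 20, 8 and 15 in siFUBP1, or 0.937 ± 0.367 and 0.835 ± 0.362 CPM (SD, n = 3). The values of the groups overlapped throughout. The log2 fold change was -0.17 with a 95% interval from -1.05 to 0.70 (adjusted p = 0.749, edgeR). Its sign turned when siMock sample 1 (0.17) or siFUBP1 sample 2 (0.13) was left out. CDH2 (ENSG00000170558, chromosome 18, 27950966 to 28177446, minus strand), the cadherin of mesenchymal and neural cells, was far more abundant. It had 34.7, 35.4 and 37.3 CPM in siMock and 56.1, 62.6 and 61.1 CPM in siFUBP1. Every siFUBP1 sample lay well above every siMock sample, and CDH2 rose 1.67-fold, from 35.8 ± 1.31 to 59.9 ± 3.43 CPM (SD, n = 3; log2 fold change 0.74, standard error 0.0869, adjusted p = 4.5e-08, edgeR).

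VIM (ENSG00000026025, chromosome 10, 17228259 to 17237593, plus strand) encodes vimentin, the intermediate filament of mesenchymal cells. It had 159, 141 and 148 CPM in siMock and 186, 183 and 214 CPM in siFUBP1. The groups were apart, but the step was the smallest of those that passed, from 149 ± 9.05 to 194 ± 16.98 CPM (SD, n = 3; log2 fold change 0.38, standard error 0.0805, adjusted p = 2.1e-04, edgeR). Of all genes tested, 44.1% had a smaller absolute log2 fold change. VIM shares 641 exonic bases with VIM-AS1 on the opposite strand, itself counted 28 to 35 times in siMock and 44 to 61 times in siFUBP1. The kit does not mark the strand and the counting is not stated to use it, so reads of those bases cannot be assigned to either gene.

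FN1 (ENSG00000115414, chromosome 2, 215360440 to 215436172, minus strand) encodes fibronectin, a matrix glycoprotein that mesenchymal cells secrete. It moved against VIM and CDH2. The siMock samples had 100.4, 121 and 119 CPM and the siFUBP1 samples 65.8, 64.2 and 66.4 CPM. FN1 fell in all siFUBP1 samples to a narrow range, from 113 ± 11.2 to 65.5 ± 1.11 CPM (SD, n = 3; log2 fold change -0.79, standard error 0.0828, adjusted p = 6.61e-09, edgeR), or 57.8% of the siMock level.

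The SNAIL genes moved in opposite directions. SNAI1 (ENSG00000124216, chromosome 20, 49982999 to 49988886, plus strand), a zinc finger repressor of CDH1 with a short-lived protein, had 131, 119 and 129 counts in siMock and 94, 68 and 84 in siFUBP1. It fell from 7.76 ± 0.670 to 4.77 ± 0.823 CPM (SD, n = 3; log2 fold change -0.70, standard error 0.174, adjusted p = 0.00109, edgeR), with no overlap between the groups. SNAI2 (ENSG00000019549, chromosome 8, 48917604 to 48921740, minus strand), which encodes the related repressor SLUG, had 21.8, 18.7 and 20.2 CPM in siMock and 33.9, 36.7 and 32.4 CPM in siFUBP1. It rose 1.70-fold, from 20.2 ± 1.55 to 34.3 ± 2.21 CPM (SD, n = 3; log2 fold change 0.76, standard error 0.0995, adjusted p = 2.66e-07, edgeR). Per kilobase, the log2 ratio of SNAI2 to SNAI1 was 0.43, 0.40 and 0.28 in siMock and 1.599, 2.22 and 1.74 in siFUBP1. SNAI2 thus went from 1.29 times to 3.61 times the level of SNAI1, or from 1.81 to 5.048 times by the principal transcripts. The difference of 1.48 in log2 ratio had an exact two-sided permutation p of 0.1, the smallest that 3 samples against 3 allow, and the groups did not overlap.

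The TWIST genes, basic helix-loop-helix factors of the mesenchyme, were led by TWIST2. TWIST2 (ENSG00000233608, chromosome 2, 238848032 to 238910543, plus strand) had 24.4, 21.6 and 21.97 CPM in siMock and 12.5, 12.5 and 10.9 CPM in siFUBP1. It fell to 52.8% of the siMock level, from 22.7 ± 1.52 to 11.96 ± 0.885 CPM (SD, n = 3; log2 fold change -0.92, standard error 0.114, adjusted p = 1.21e-07, edgeR). This was the largest fall among the 10 genes. TWIST1 (ENSG00000122691, chromosome 7, 19020991 to 19117672, minus strand) had 17, 14 and 6 counts in siMock and 24, 44 and 5 in siFUBP1. The siFUBP1 samples thus hold both its highest and its lowest count, and the log2 fold change of 0.90 had an interval from -0.35 to 2.15 (adjusted p = 0.199, edgeR). Without siFUBP1 sample 3 the log2 fold change was 1.39 and passed the test (adjusted p = 0.00754, edgeR, with alternatives spanning 0.00754 to 0.814). The log2 ratio of TWIST2 to TWIST1 was 5.15 ± 0.701 in siMock and 3.68 ± 1.53 in siFUBP1 (SD, n = 3), and the groups overlapped (difference -1.47, exact two-sided permutation p = 0.3). That difference was -0.84 without siFUBP1 sample 2 and -2.32 without siFUBP1 sample 3.

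Both ZEB genes were higher in siFUBP1. ZEB1 (ENSG00000148516, chromosome 10, 31318495 to 31529814, plus strand), a zinc finger and homeodomain repressor, had 28.4, 29.2 and 32.3 CPM in siMock and 38.3, 39.8 and 45.7 CPM in siFUBP1. It rose 1.38-fold, from 30.0 ± 2.07 to 41.3 ± 3.87 CPM (SD, n = 3; log2 fold change 0.46, standard error 0.0957, adjusted p = 1.73e-04, edgeR). Its antisense neighbour ZEB1-AS1, with which it shares 366 exonic bases or 4.23% of its own, went from 34 to 71 counts in siMock up to 101 to 131 in siFUBP1 (log2 fold change 1.17, adjusted p = 6.46e-05, edgeR). ZEB2 (ENSG00000169554, chromosome 2, 144364364 to 144524583, minus strand) had 83, 69 and 91 counts in siMock and 182, 195 and 166 in siFUBP1. It rose 2.11-fold from a low level, 4.99 ± 0.888 to 10.51 ± 0.898 CPM (SD, n = 3; log2 fold change 1.08, standard error 0.163, adjusted p = 2.8e-06, edgeR), the largest rise of the 10 genes among those that passed. On the log2(FPKM + 1) scale the change shrank to 0.24, since its FPKM is small beside the added 1. ZEB2-AS1, which overlaps 1299 exonic bases of ZEB2, had 0 counts in all samples, and 0.895% of the 50-base words of ZEB2 also occur in the pseudogene ZEB2P1. None of the 50-base words of the other 9 genes occurred in the transcripts of another gene read in the sense direction. Reverse complements were not searched, so stretches shared with antisense genes are not covered. Per kilobase, ZEB2 stayed far under ZEB1, at a log2 ratio of -4.13 ± 0.213 in siMock and -3.51 ± 0.252 in siFUBP1 (SD, n = 3), a difference of 0.63 with no overlap (exact two-sided permutation p = 0.1, the smallest possible here). These levels depend on the length used: by the principal transcripts the log2 ratios were -3.42 and -2.79, with the same difference.

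**Figure D3:**
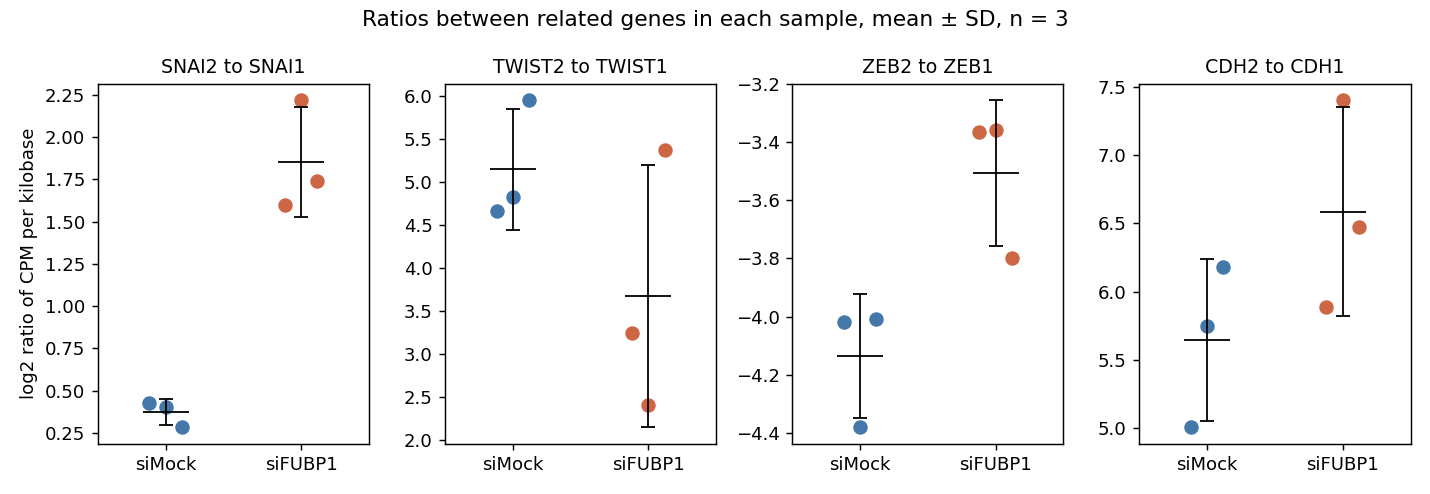
Per-sample log2 ratio of CPM per kilobase between related genes, with the mean and SD of 3 samples; each panel has its own vertical scale and none starts at 0. The groups are apart for SNAI2 to SNAI1 and for ZEB2 to ZEB1 and overlap for the other 2 ratios.

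The cadherin ratio, the measure most often used for the transition, did not separate the groups. The log2 ratio of CDH2 to CDH1 was 5.01, 5.75 and 6.18 in siMock and 5.88, 7.40 and 6.47 in siFUBP1, and the groups overlapped (difference 0.94, exact two-sided permutation p = 0.2). The difference was 0.53 without siFUBP1 sample 2 and 0.62 without siMock sample 1. CDH2 exceeded CDH1 50.04-fold in siMock and 96.1-fold in siFUBP1 on this scale, and the counts of CDH1, 8 to 22, set the spread. Adjusted over the 4 ratios compared, the exact permutation p was 0.2 for SNAI2 to SNAI1 and for ZEB2 to ZEB1, 0.267 for CDH2 to CDH1 and 0.3 for TWIST2 to TWIST1.

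**Figure D4:**
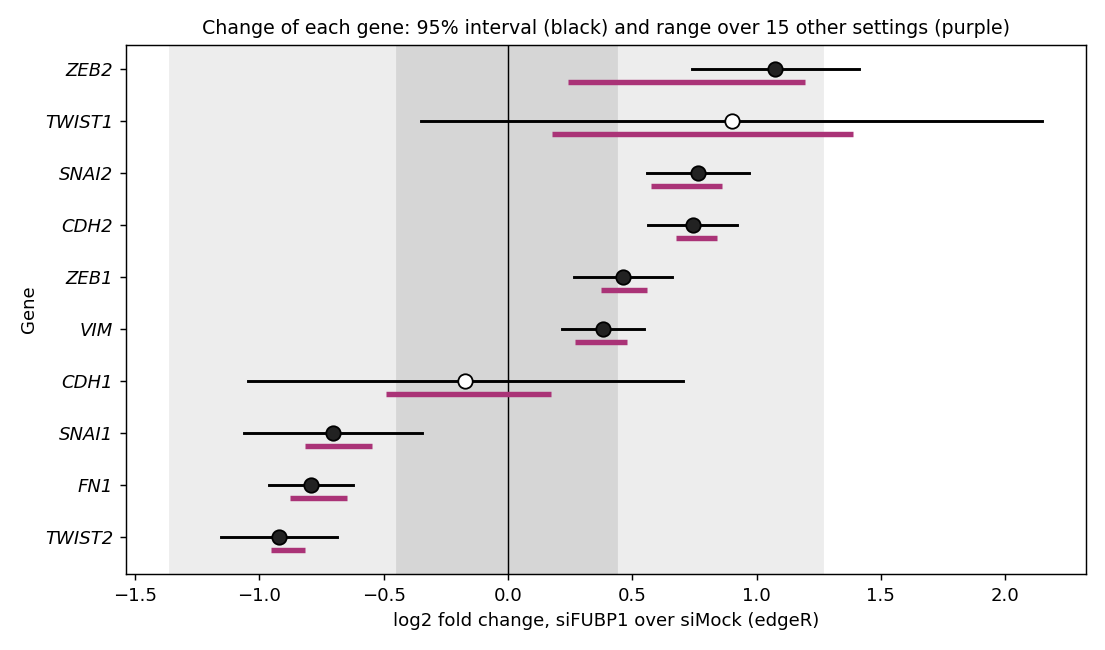
log2 fold change of each gene by edgeR (filled points, adjusted p below 0.05), with the 95% interval in black and the range over 15 other settings in purple. The grey bands hold the middle 50% (dark) and 90% (light) of all genes tested. ZEB2 is the highest at 1.08 and TWIST2 the lowest at -0.92, and all 10 points lie inside the light band.

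Levels between the genes were compared as RPKM, CPM per kilobase of the gene's total exonic length. In siMock, VIM was highest at 28.9 ± 1.75 RPKM, then TWIST2 at 12.1 ± 0.807, CDH2 at 7.24 ± 0.265, FN1 at 6.55 ± 0.649, SNAI2 at 5.96 ± 0.457, SNAI1 at 4.60 ± 0.397 and ZEB1 at 3.47 ± 0.240 (SD, n = 3). TWIST1 (0.369 ± 0.165), ZEB2 (0.199 ± 0.0354) and CDH1 (0.152 ± 0.0595) came last. Neighbours in this order did not overlap, except FN1 with SNAI2, TWIST1 with ZEB2 and ZEB2 with CDH1. In siFUBP1 the order was VIM (37.7 ± 3.29), CDH2 (12.1 ± 0.693), SNAI2 (10.1 ± 0.652), TWIST2 (6.37 ± 0.471), ZEB1 (4.77 ± 0.448), FN1 (3.78 ± 0.0643), SNAI1 (2.83 ± 0.488), TWIST1 (0.696 ± 0.554), ZEB2 (0.419 ± 0.0358) and CDH1 (0.135 ± 0.0586). There the neighbours TWIST1 and ZEB2 alone overlapped. TWIST2, FN1 and SNAI1 thus lost places, and CDH2, SNAI2 and ZEB1 gained them. Against the principal transcript instead of the total exonic length, FN1 (14.4 ± 1.42 RPKM, siMock) ranked 3 and VIM reached 79.8 ± 4.84, so the order of FN1 depends on the length used. By that length SNAI1 and ZEB1 kept their places between the groups, while the other shifts in the order of the means held. Neighbours then overlapped for SNAI2 with CDH2, ZEB2 with TWIST1 and TWIST1 with CDH1 in both groups. In siFUBP1, TWIST2 with FN1 and FN1 with ZEB1 overlapped as well. CDH1 had the lowest mean by both lengths.

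As a description, the gene most like each in log2 CPM over the 6 samples was sought among 10436 protein-coding genes that averaged 100 counts or more. The highest Pearson correlations were with ERLIN1 for CDH2 (0.9998), TGFBR1 for VIM (0.996), CTC1 for FN1 (0.9997), TTC38 for SNAI1 (0.998), CAMTA2 for SNAI2 (0.999), LIN52 for TWIST2 (0.999), ATP2B1 for ZEB1 (0.998) and RBM18 for ZEB2 (0.999). CDH1 and TWIST1 were too low to be compared. Such values are common where the groups are far apart, and 16.2% of the genes reached more than 0.95 with CDH2 but 1.91% with VIM. For each gene, the promoter window from RefSeq (300 bases around a start) nearest the GENCODE start was searched on both strands for the E-box CACCTG. It was found once at ZEB1 and not at CDH2, VIM, FN1, TWIST2 or ZEB2. ZEB1 has 7 windows and CDH2 has 2, of which only the nearest was searched. The ZEB2 window, at 144520070 to 144520369, lies inside the gene and not at its GENCODE start. Of all 35116 windows, 20.6% hold this E-box. CDH1, SNAI1 and TWIST1 had no entry and SNAI2 was not searched.

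Among 24 other EMT transcription factors and dimer partners, 16 were tested and 3 rose, 8 fell and 5 did not pass (median log2 fold change -0.36; 68.8% passed, beside 60.2% of all genes tested). The E-proteins, with which TWIST factors pair, rose: TCF3 went from 58.6 ± 5.32 to 118 ± 5.08 CPM (log2 fold change 1.01) and TCF12 from 53.0 ± 3.90 to 84.5 ± 2.57 CPM (0.67; SD, n = 3). The ID proteins, which bind E-proteins and keep them from DNA, fell: ID1 went from 463 ± 54.7 to 131 ± 4.42 CPM (-1.82) and ID2 from 20.01 ± 2.28 to 7.89 ± 1.297 CPM (-1.34). ID3, named after its values were seen, fell as well (-1.13), while ID4, likewise named later, had 0 counts. ETS1, a factor that drives matrix-degrading enzymes, rose from 45.5 ± 1.37 to 114 ± 5.76 CPM (1.33), and PRRX2 fell from 3.51 ± 1.01 to 0.797 ± 0.390 CPM (-2.14). TCF4, a further E-protein, had at most 2 counts in any sample. The adjusted p-values of the genes that rose or fell here were at most 5.13e-06 (edgeR). With the correction for GC content and length, chosen after the data were seen, 5 genes of this list rose.

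Of 29 genes of the epithelial programme, 21 were tested, of which 2 rose, 15 fell and 4 did not pass (median log2 fold change -0.55, beside 0.0020 over all genes; 81.0% passed, beside 60.2%). The genes that fell include the junction scaffold TJP3 (32.0 ± 3.26 to 4.19 ± 0.850 CPM, log2 fold change -2.93), the membrane serine protease ST14 (159 ± 16.1 to 42.0 ± 5.82 CPM, -1.92) and the polarity gene LLGL2 (194 ± 14.1 to 54.4 ± 1.83 CPM, -1.83). KRT8 was at -1.002, KRT18 at -0.66, KRT7 at -0.40 and the splicing regulator ESRP2 at -1.30, all past the test and named after their values were seen. The 4 that did not pass, also named later, were EPCAM (0.19), CLDN7 (0.22), MARVELD2 (0.52) and TJP1 (-0.043). Their adjusted p-values were at least 0.130 (edgeR). KRT8 and KRT18 share 525 exonic bases on opposite strands. The tight junction gene CLDN1 rose from 55.5 ± 1.86 to 181 ± 26.4 CPM (1.70) and the desmosomal plakophilin PKP2 from 4.13 ± 0.140 to 9.22 ± 1.32 CPM (1.157; all SD, n = 3; adjusted p at most 1.7e-06, edgeR, for the 5 genes given with levels). Without siFUBP1 sample 3, 4 genes of the list rose.

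**Figure D5:**
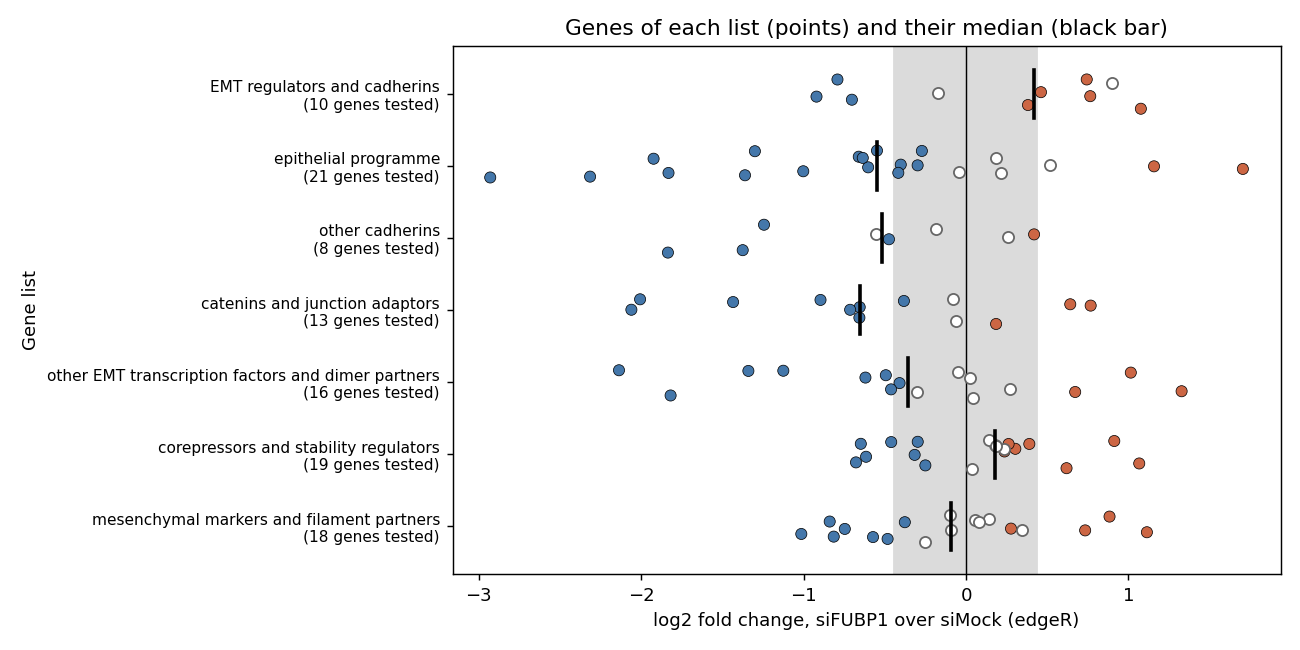
log2 fold change of the tested genes of each list (filled, adjusted p below 0.05 by edgeR; open, not passed), with the list's median as a black bar. The grey band holds the middle 50% of all genes tested. The medians run from -0.65 for the catenins and junction adaptors to 0.42 for the EMT regulators and cadherins.

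Other cadherins were mostly absent. Of 21, 5 had 0 counts and 8 were tested, and 1 rose, 4 fell and 3 did not pass (median -0.52), so that 62.5% passed beside 60.2% of all genes tested. CDH13, a cadherin held by a lipid anchor, rose from 30.7 ± 2.56 to 41.1 ± 1.46 CPM (log2 fold change 0.42), beside CDH24 (64.7 ± 4.69 to 46.6 ± 0.982 CPM, -0.47), CDH4 (2.32 ± 0.495 to 0.887 ± 0.255 CPM, -1.38) and CDH16 (2.57 ± 0.198 to 0.714 ± 0.193 CPM, -1.84), which fell. Of 16 catenins and junction adaptors, 13 were tested, and 3 rose, 8 fell and 2 did not pass (median -0.65; 84.6% passed). The actin linker VCL fell from 516 ± 35.1 to 128 ± 10.47 CPM (-2.01), NECTIN1 from 11.97 ± 2.07 to 2.87 ± 0.847 CPM (-2.06) and NECTIN2 from 46.5 ± 4.61 to 17.2 ± 1.79 CPM (-1.43), while CTNNAL1 (48.2 ± 3.25 to 82.0 ± 4.39 CPM, 0.77), PKP4 (50.8 ± 3.30 to 79.3 ± 4.18 CPM, 0.64) and CTNNA1, which ties the cadherin complex to actin (434 ± 18.2 to 493 ± 9.09 CPM, 0.18) rose. VCL shares 11.1% of its exonic bases with AP3M1. Beta-catenin, CTNNB1, had a log2 fold change of -0.08 and did not pass (adjusted p = 0.381, edgeR). CTNNB1 is named after its values were seen. The adjusted p-values of the genes that passed were at most 0.0384 (edgeR).

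Of 25 mesenchymal markers and filament partners, 18 were tested, and 4 rose, 7 fell and 7 did not pass (median -0.096). The share that passed, 61.1%, was close to the 60.2% of all genes tested. NT5E, a surface nucleotidase, rose from 6.82 ± 0.551 to 14.8 ± 3.18 CPM (log2 fold change 1.11), the hyaluronan receptor CD44 from 189 ± 11.96 to 348 ± 23.4 CPM (0.88) and the actin binder TAGLN from 6.05 ± 0.0931 to 10.1 ± 0.459 CPM (0.73). FSTL1 fell from 345 ± 11.8 to 193 ± 19.6 CPM (-0.84), the receptor PDGFRB from 3.40 ± 0.780 to 1.93 ± 0.418 CPM (-0.81) and the intermediate filament NES from 5.83 ± 0.991 to 2.89 ± 0.525 CPM (-1.01). The adjusted p-values of these 6 genes were at most 0.00871 (edgeR). PDGFRA, POSTN and CNN1, named after their values were seen, had 0 counts in every sample. TAGLN shares 11.4% of its exonic bases with PCSK7.

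All 19 corepressors and stability regulators were tested, and 7 rose, 7 fell and 5 did not pass (median 0.18; 73.7% passed, beside 60.2% of all genes tested). FBXO45, a ubiquitin ligase subunit known to act on EMT factors, rose from 25.9 ± 1.42 to 54.2 ± 3.63 CPM (log2 fold change 1.07), beside the SNAI1 partner AJUBA (160 ± 5.97 to 301 ± 43.7 CPM, 0.91) and GSK3B, the kinase that labels SNAI1 protein for turnover (93.9 ± 4.60 to 144 ± 7.54 CPM, 0.62). The ubiquitin ligase subunits FBXL14 (10.51 ± 0.414 to 6.57 ± 1.297 CPM, -0.68) and BTRC (47.9 ± 2.92 to 30.6 ± 0.475 CPM, -0.65) and the corepressor RCOR1 (117 ± 2.55 to 76.5 ± 8.05 CPM, -0.62) fell. The adjusted p-values of these 6 genes were at most 5.19e-04 (edgeR). The lists were described by counts and medians only, with no test of a list as a whole.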

How the data were processed

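RNA from 6 samples of cells labelled MG63 was analysed, 3 siFUBP1 and 3 siMock, grouped by their deposited titles. Poly-A mRNA was made into libraries with a kit that does not mark the strand. The submitters' processing notes name HISAT2 2.0.5, StringTie 1.3.3b, featureCounts 1.5.0-p3 and DESeq2 1.16.1 with no role. The authors deposited raw read counts per gene, which carry every result here. The deposited FPKM values, scaled by the authors to gene length and library size, served 2 alternatives. The signal columns deposited by the authors carry names of group means and entered no result. The log2 fold changes and the p-values of the authors' own comparison, also deposited, were not used. The 58735 gene entries have the identifiers and positions of GENCODE 29 (GRCh38).

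Counts were fitted with edgeR 4.0.16 in R 4.3.3 (TMM, its expression filter with the group, robust quasi-likelihood test), on the whole table, with Benjamini-Hochberg adjustment over 16116 genes. The common dispersion was 0.00684 and the TMM factors were 0.959 to 1.05. Counts limit the precision mainly for CDH1 and TWIST1, and the limit given for a count of 0 covers counting error only, while edgeR's 95% intervals include the spread between samples. No samples held identical counts, and each pair differed by more than sampling noise (chi-square per gene at least 5.87). Ratios were compared by exact permutation. The scripts were tested on simulated data. Alternatives used RLE or no scaling, other filters, DESeq2 1.42.0, limma 3.58.1 on log2(FPKM + 1) and log2(FPKM + 0.1), the replicate number as a block, each sample left out and, added later, a GC content and length correction.

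The genes and the 6 lists were chosen with earlier results of these data known. Named are all 10 genes and FUBP1, the gene most like each, and the antisense genes VIM-AS1, ZEB1-AS1 and ZEB2-AS1. Further antisense genes, which overlap exons of CDH1, CDH2, VIM and TWIST1, had at most 6 counts in any sample and are not named. Also named are up to 3 genes in each direction per list (largest absolute change, adjusted p below 0.05, groups apart, mean of at least 20 counts). Others are said to be named after their values were seen. No sequence of SNAI2 is printed. UTRs are those of 1 principal GENCODE transcript per gene.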

Additional observations from a re-analysis of the deposited data

How the results depend on the processing

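The 8 genes past the test kept their direction and stayed past it under all 15 other settings, and FUBP1 lay between -2.60 and -2.31. Of 165 fold changes recomputed, 162 kept both their sign and their side of the test. Of 212 counts, 164 were identical, 44 changed by up to 1.5 times and 4 by more. With an absolute log2 fold change above 1 required, 1 gene was higher and 0 lower. CDH1 lay between -0.49 and 0.17 with single samples left out, at 0.17 without siMock sample 1 and 0.13 without siFUBP1 sample 2, where its sign turned. TWIST1 lay between 0.18 and 1.39, at 1.39 (past the test) without siFUBP1 sample 3, and the genes called higher were then 5 to 6. The epithelial genes that rose numbered 2 to 4 with single samples left out, and the other EMT transcription factors that rose numbered 5 with the GC content and length correction, which was added after the data were seen and used GENCODE transcripts because no genome was used here. It reduced Spearman's rho of the log2 fold change with GC content across genes from -0.20 to -0.0206. In total-count scaling the median of all genes moved to 0.0986, and 5698 genes were higher and 4121 lower, against 4844 and 4851 with TMM. Deviations of same-numbered samples correlated at -0.00469, 0.0171 and 0.123, and those of differently numbered samples between -0.0918 and 0.0743. These values do not settle whether the replicate number pairs the samples. With the replicate number as a block, 5013 genes were higher and 5001 lower, CDH2 was at 0.74, ZEB2 at 1.08 and CDH1 at -0.18, and it changed no call among the 10 genes. The differences in ratio between groups were identical from FPKM and with the principal transcript length (added after the data were seen), since scaling and length cancel. With single samples left out they lay between 1.297 and 1.61 for SNAI2 to SNAI1, -2.32 and -0.84 for TWIST2 to TWIST1, 0.50 and 0.77 for ZEB2 to ZEB1, and 0.53 and 1.29 for CDH2 to CDH1. The ratios were not recomputed with the GC content and length correction. Under it SNAI2 was at 0.58 and SNAI1 at -0.64, against 0.76 and -0.70 without it. The GC content of the longest transcript is 41.4% for SNAI2 and 58.2% for SNAI1. With the same correction VIM was at 0.27, ZEB1 at 0.39, CDH2 at 0.68 and ZEB2 at 1.07, against 0.38, 0.46, 0.74 and 1.08. FN1 was at -0.79 and TWIST2 at -0.89, against -0.79 and -0.92. Low counts limit CDH1 and TWIST1, with 5 to 44 reads per sample.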
